A study of Homo sapiens with 24 samples.

Results

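The transcripts of 10 amino acid transporters were followed in cultured pancreas cells exposed to vesicles from pancreatic cancer cells. The genes were chosen by name, with earlier results of these data known: SLC7A1, SLC7A2, SLC7A5, SLC7A6, SLC7A11, SLC3A2, SLC1A4, SLC1A5, SLC38A2 and SLC6A9. Each symbol had a single entry, giving 10 of the 48162 genes measured. The recipient lines were hTERT-HPNE (HPNE below), a pancreas line carrying the telomerase gene, and HPDE-H6c7 (HPDE below), an immortalised duct line. Both are labelled normal pancreas cells, each is represented by a single line, and both grew in keratinocyte medium without serum to partial confluence. For 24 h they were left in fresh medium (untreated), given residual medium (the liquid remaining when vesicles had been isolated, which served the study as its negative control), or given 1E10 vesicles per well. The vesicles came from PPCL-68 cells or from the pancreatic carcinoma line PANC-1. The 2 lines and 4 treatments make 8 groups of 3 RNA-seq libraries, which the design text calls biological triplicates.

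Amino acid transporters move amino acids across the plasma membrane, some with sodium and some by exchanging an amino acid outside for another inside. SLC3A2, the CD98 heavy chain, is a single-pass protein that carries no substrate path of its own. It is linked by a disulphide bond to a light chain of the SLC7 family, such as SLC7A5 (LAT1), SLC7A6 (y+LAT2) or SLC7A11 (xCT), and brings it to the cell surface. SLC7A1 and SLC7A2 take up cationic amino acids without a heavy chain. Several of these genes are textbook targets of ATF4, the transcription factor whose translation rises when amino acids run short or when the endoplasmic reticulum is stressed, and SLC7A11 is also a textbook target of NFE2L2 (NRF2) in the oxidative stress response.

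On hg19, the build named in the submitters' processing notes, the cationic transporter SLC7A1 lay at chr13:30083547-30169825 on the minus strand. The heavy chain SLC3A2 lay at chr11:62623518-62656352 on the plus strand. Of its partners, SLC7A5 lay at chr16:87863629-87903094 (minus), SLC7A6 at chr16:68298433-68335722 (plus) and SLC7A11 at chr4:139085251-139163503 (minus). SLC1A4 lay at chr2:65215611-65250999 (plus) and SLC1A5 at chr19:47278140-47291851 (minus). SLC38A2 lay at chr12:46751972-46766650 and SLC6A9 at chr1:44457172-44497139, both on the minus strand. All 10, with SLC7A2 placed further on, are annotated as protein coding, and these spans are whole genes, exons and introns together.

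As a description with no test, promoters of the transporters were searched for letters bound by stress factors, and also for the E-box. RefSeq promoter entries (GRCh38.p14) were matched for 8 genes, with 13 start sites, all but SLC7A2 and SLC7A11. The motifs were TGATGNAAN, an amino acid response element bound by ATF4 with a C/EBP partner, and its strict form TGATGCAA, which lies inside it; TGACNNNGC, an antioxidant response element bound by NFE2L2; and CACGTG, an E-box. Both strands of the 250 bases before each start were read. Sites elsewhere, such as in exons or introns, were not searched, so a gene without a match may hold one there. Of 35116 promoters of the same length, 3.132% held TGATGNAAN, 0.7717% its strict form, 10.91% TGACNNNGC and 6.345% CACGTG. Among the 13 starts, 1 held the amino acid response element, 4 the antioxidant response element and 2 the E-box. The windows below show representative matches, with the motif in capitals and 10 bases on each side.
SLC1A5: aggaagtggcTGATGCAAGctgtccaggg
SLC3A2: cgagggtgggTGACTCAGCgtcctccttc
SLC7A1: tgcccggcggTGACGCGGCcgagcgggcc
SLC7A6: cggcggcgggTGACGTGGCggggcggggc
SLC7A5: ccggacgacgCACGTGctccgagctg
The SLC1A5 window (chr19:46784893-46784921, minus strand) holds the single amino acid response element found, and it belongs to the third of that gene's 3 start sites. The SLC3A2 window (chr11:62881652-62881680, plus strand), the SLC7A1 window (chr13:29595755-29595783, minus strand) and the SLC7A6 window (chr16:68264487-68264515, plus strand) hold the antioxidant response element. The E-box of SLC7A5 lies at chr16:87869622-87869647 on the minus strand. The SLC7A6 promoter held 2 antioxidant response elements, of which 1 is shown. The starts of SLC1A4, SLC38A2 and SLC6A9 held none of the motifs. These matches describe letters only, and binding was not measured.

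Levels are in FPKM, which divides a gene's reads by its length and by the library's total. Each library held 29209142 to 46490312 reads assigned to genes, and the smallest count behind any value of the 10 genes was 188 reads, for SLC6A9. In each HPNE group 1 library lay apart from a close pair (2.05 to 3.31 times as far as the pair was from each other, against 1.08 to 1.24 times in HPDE). They are untreated replicate 3, residual replicate 3 and the first replicate of each vesicle group. Every setting below without these 4 libraries keeps the closer pair of each HPNE group by construction. That lowers the spread, so the adjusted p-values of that setting are not independent support. Markers of duct epithelium summed to 1450 to 3537 FPKM in HPDE and to 6.95 to 16.7 FPKM in HPNE, and mesenchymal markers to 78.4 to 152 FPKM in HPDE and to 9954 to 15703 FPKM in HPNE. A mean of 1 FPKM was reached by 3 of the 10 duct markers in HPNE and by 8 in HPDE, and EPCAM, a defining epithelial marker, had no more than 12 reads in any HPNE library. Acinar markers reached at most 3 reads. Strand was not kept, so reads of a member and of a gene overlapping it on the opposite strand cannot be told apart. This concerns SLC7A6 with SLC7A6OS and SLC6A9 with CCDC24, among others. In HPDE, CCDC24 averaged 4.65 FPKM untreated and 5.29 with residual medium, above SLC6A9 itself at 3.96 and 3.80. SLC7A6OS averaged 2.16 FPKM in untreated HPDE and 0.955 in untreated HPNE, below SLC7A6 at 6.90 and 2.06. SLC7A11-AS1 stayed at or below 0.366 FPKM. SLC7A5 has pseudogene copies, of which SLC7A5P1 reached 6.16 FPKM.

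The base levels in fresh medium came first. In HPNE the order ran from SLC38A2 at 129 ± 16.6 FPKM (SD, n = 3) through SLC1A5, SLC3A2, SLC7A5, SLC7A1, SLC7A11, SLC6A9, SLC7A2 and SLC1A4 to SLC7A6 at 2.06 ± 0.30 FPKM. Neighbours in that order had separate ranges except SLC1A5 and SLC3A2. In HPDE the light chain SLC7A5 led at 528 ± 12.8 FPKM, followed by SLC3A2, SLC38A2, SLC1A5, SLC7A1, SLC7A11, SLC7A2, SLC7A6, SLC1A4 and SLC6A9. There the ranges of SLC7A2 and SLC7A6, and of SLC1A4 and SLC6A9, overlapped. The difference between the untreated lines was tested with limma on log2(FPKM + 1), the scale of every log2 difference below, with p-values adjusted over all genes tested and a threshold of 0.05. SLC7A5 was 10.3 times as high in HPDE (log2 difference 3.36, SE 0.31, adjusted p = 3.24e-09). SLC3A2 (log2 difference 1.44) and SLC7A6 (1.37) were also higher in HPDE, and SLC6A9 was lower (-1.21, adjusted p = 0.000311). SLC1A5, SLC38A2 and SLC7A2 passed the test with differences of 0.30 to 0.39, near the median of all genes (0.38), and lost the call when libraries were scaled by size factors, which shift the median of all genes by -0.31; SLC38A2 then turned in sign (-0.068). SLC38A2 also lost its call without HPNE untreated replicate 3 or HPDE untreated replicate 1 (adjusted p = 0.160 and 0.161), and SLC7A2 without any HPNE untreated library or HPDE untreated replicate 1 or 3 (adjusted p 0.0643 to 0.142). SLC7A11, at -0.37 (adjusted p = 0.163), was called lower in HPDE with size factors (-0.71, adjusted p = 0.0213), with limma voom (-0.82, adjusted p = 0.0072) and without the 4 HPNE libraries that lie apart (-0.39, adjusted p = 0.00117). In that last setting SLC1A4 (0.38, adjusted p = 0.000496) and SLC7A1 (0.28, adjusted p = 0.000368) were called higher. In all, 6 genes were higher and 1 lower, beside 56% and 27.7% of all 12377 genes, so the count itself is near the background. Differences of at least 1 upward were found for 3 of the 10, beside 27.1% of all genes.

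**Figure D1:**
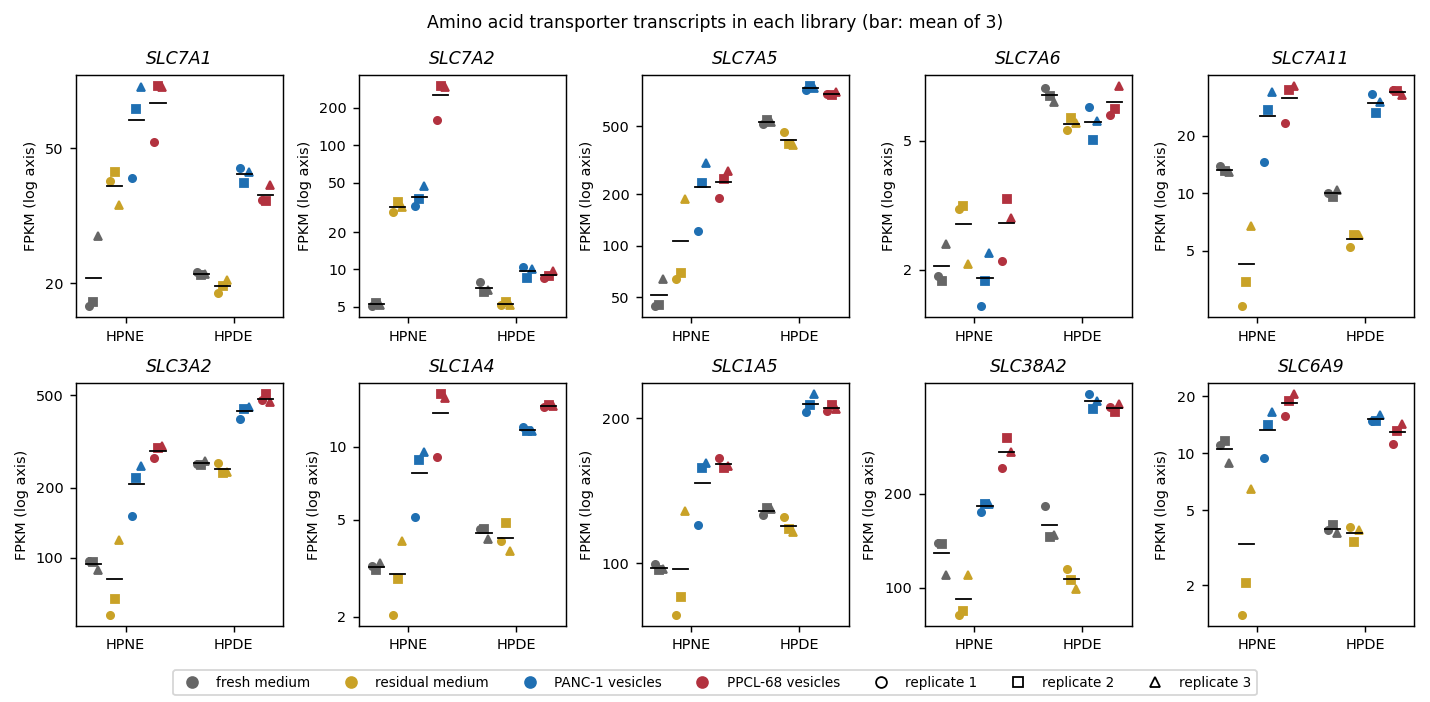
FPKM of the 10 transporters in each of the 24 libraries, on a log axis, with a separate scale for each gene; colour gives the treatment, symbol shape the replicate and the bar the mean of 3. The means of both vesicle groups lie above that of residual medium for most genes in both lines. With PANC-1 vesicles in HPNE the libraries of SLC7A1, SLC7A2, SLC7A5, SLC7A6 and SLC1A5 overlap those of residual medium. SLC7A2 with PPCL-68 vesicles in HPNE reaches 303 FPKM, and SLC7A6 stays between 1.55 and 7.39 FPKM.

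The question the study posed was how vesicles from cancer cells act on normal pancreas cells, with residual medium as the matched control. Most of the transporters rose with vesicles of either source and in both lines, and none fell (background of falls 10.3% and 19.7% of all genes in HPNE and 35.1% and 36.4% in HPDE, PANC-1 first). With PANC-1 vesicles in HPNE, 6 of the 10 rose against residual medium, beside 13.9% of all 11503 genes tested, and 4 rose by at least 1 on the log2 scale, beside 1.59%. PPCL-68 vesicles raised 9 in HPNE (background 20.3%), 7 of them by at least 1 (background 2.53%). In HPDE 9 rose with PANC-1 vesicles and 9 with PPCL-68 vesicles. There the replicates were tight and 28.2% and 31.3% of all 12223 genes also passed upward, so the size of the rises was counted as well: 6 and 5 of the 10 rose by at least 1, beside 1.55% and 1.83% of all genes. The median log2 difference of the 10 genes was 1.06 and 1.72 in HPNE (PANC-1, PPCL-68) and 1.03 and 0.95 in HPDE, while the median of all genes lay between -0.04 and 0.02. The comparisons with each vesicle source share the same residual medium libraries. The 10 genes, and the gene lists further on, were chosen with earlier results of these data known. Their counts beside the background are therefore a description and not independent support. RNA was taken from whole cultures, so a change in RNA per cell and a change in the share of cells expressing a gene cannot be told apart. Without the 4 HPNE libraries that lie apart, 9 genes rose and 1 fell with PANC-1 vesicles in HPNE, where 3240 of all 11503 genes were called higher and 3539 lower, and the remaining libraries of each group are the closer pair by construction. In HPDE the duct marker sum moved as well: its median was 1628 FPKM with PANC-1 vesicles and 1458 with PPCL-68 vesicles, against 3306 with residual medium and 2822 untreated, and mesenchymal markers summed to 131.5 to 152 FPKM with PPCL-68 vesicles, 94.1 to 106 with PANC-1 vesicles, 102.5 to 122 with residual medium and 78.4 to 89 untreated. In HPNE the median mesenchymal sum was 12245 FPKM with PANC-1 vesicles, 11059 with PPCL-68 vesicles, 10132 with residual medium and 15451 untreated. The part of these shifts in the results was not tested.

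**Figure D2:**
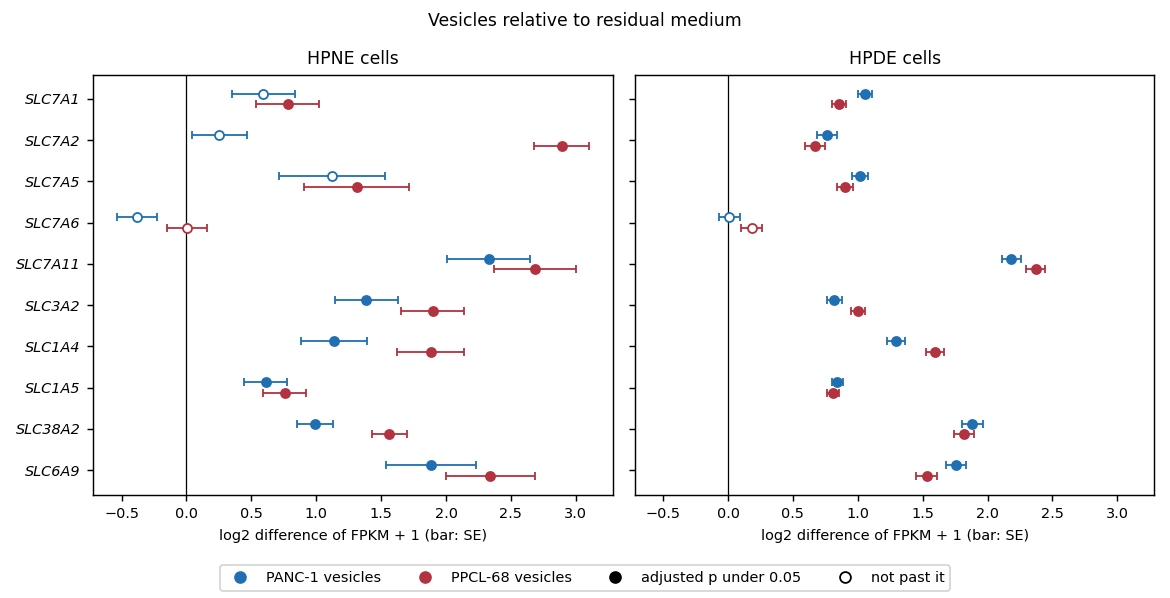
Log2 difference of FPKM + 1 between vesicles and residual medium for each transporter, with its SE as the bar, HPNE left and HPDE right on the same scale; filled points have an adjusted p under 0.05. SLC7A11 shows differences above 2 in all 4 comparisons, SLC7A2 has one of 2.89 with PPCL-68 vesicles in HPNE, and SLC7A6 lies between -0.38 and 0.18.

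SLC7A11, the light chain that exchanges extracellular cystine for glutamate and feeds glutathione synthesis, showed large rises. In HPNE its level, in replicates 1, 2 and 3 in that order as in all lists that follow, was 2.56, 3.42 and 6.72 FPKM with residual medium, 14.6, 27.4 and 33.8 with PANC-1 vesicles and 23.2, 34.6 and 36.6 with PPCL-68 vesicles. No residual library reached the lowest vesicle library. The log2 differences were 2.33 (SE 0.32, adjusted p = 0.000881) and 2.69 (SE 0.32, adjusted p = 0.000159). In HPDE the levels were 5.2, 6.04 and 6.0 FPKM with residual medium, 33, 26.2 and 29.8 with PANC-1 vesicles and 34.7, 34.4 and 32.6 with PPCL-68 vesicles, again without overlap. That is 5.17-fold and 5.9-fold (log2 2.18 and 2.37, adjusted p = 1.50e-11 and 4.82e-12). In untreated cells SLC7A11 stood at 13.9, 13 and 12.8 FPKM in HPNE and 9.97, 9.58 and 10.4 in HPDE, between residual medium and vesicles in both lines.

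SLC3A2, the heavy chain, rose in all 4 comparisons. HPNE libraries held 57.1, 66.5 and 119 FPKM with residual medium, 151, 221 and 249 with PANC-1 vesicles and 269, 297 and 302 with PPCL-68 vesicles. The third residual library was the highest of its group, yet below every vesicle library. The rise was 1.39 on the log2 scale with PANC-1 vesicles (adjusted p = 0.00329) and 1.90 with PPCL-68 vesicles (adjusted p = 0.000262). HPDE libraries held 256, 233 and 233 FPKM with residual medium, 396, 436 and 446 with PANC-1 vesicles and 479, 505 and 465 with PPCL-68 vesicles, and the groups did not overlap. The HPDE rises were 0.82 and 1.00 (adjusted p = 1.72e-08 and 1.17e-09).

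SLC7A5, the light chain for leucine and other large neutral amino acids, was more variable in HPNE. Its levels there were 64, 69.1 and 187 FPKM with residual medium, 122, 232 and 306 with PANC-1 vesicles and 191, 247 and 275 with PPCL-68 vesicles. Residual replicate 3 lay above PANC-1 replicate 1, so these 2 groups overlapped. The difference with PANC-1 vesicles, 1.12 (SE 0.41), did not pass the test (adjusted p = 0.0649); it passed without PANC-1 replicate 1 (1.5, adjusted p = 0.0277), without residual replicate 3 (1.61, adjusted p = 0.00354) and without the 4 libraries that lie apart (1.99, adjusted p = 2.85e-07). With PPCL-68 vesicles the rise was 1.31 (adjusted p = 0.0244), and the call was lost without residual replicate 1 or 2 or PPCL-68 replicate 2 or 3 (adjusted p 0.0663 to 0.0994) and without a filter on low values (adjusted p = 0.0766). In HPDE, where SLC7A5 was the most abundant of the 10, levels were 463, 394 and 386 FPKM with residual medium, 809, 862 and 839 with PANC-1 vesicles and 766, 757 and 790.4 with PPCL-68 vesicles. These are rises of 1.02 and 0.90 on the log2 scale (adjusted p = 6.10e-09 and 1.29e-08).

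SLC7A6, a light chain that exchanges cationic for neutral amino acids, did not pass the test against residual medium in either line. In HPNE it stood at 3.08, 3.15 and 2.08 FPKM with residual medium, 1.55, 1.85 and 2.26 with PANC-1 vesicles and 2.13, 3.31 and 2.9 with PPCL-68 vesicles. The log2 differences were -0.38 (SE 0.16, adjusted p = 0.0951) and 0.00434 (SE 0.16). The PANC-1 value passed as a fall without residual replicate 3 (-0.52, adjusted p = 0.0212) and without the 4 libraries that lie apart (-0.43, adjusted p = 0.00324). In HPDE its levels were 5.38, 5.86 and 5.67 FPKM with residual medium, 6.35, 5.02 and 5.74 with PANC-1 vesicles and 6.02, 6.26 and 7.39 with PPCL-68 vesicles. The HPDE differences were 0.01 (adjusted p = 0.921) and 0.18 (adjusted p = 0.0563); the latter passed with size factors (0.21, adjusted p = 0.0245), with limma voom (0.24, adjusted p = 0.0114) and without PPCL-68 replicate 1 (0.23, adjusted p = 0.0303). SLC7A6OS, which overlaps it, did not pass in any of these 4 comparisons.

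The cationic amino acid transporters, which bring in arginine, lysine and ornithine, followed. SLC7A2 lies at chr8:17354597-17428082 on the plus strand (hg19). In HPNE it stood at 5.09, 5.36 and 5.22 FPKM untreated, 28.9, 35.1 and 32.1 with residual medium, 32.4, 37 and 46.6 with PANC-1 vesicles and 161, 303 and 295 with PPCL-68 vesicles. The PPCL-68 libraries were separate from all others and the untreated libraries lay below all others, while PANC-1 and residual libraries overlapped. Against residual medium the rise was 7.9-fold with PPCL-68 vesicles (log2 2.89, SE 0.21, adjusted p = 1.64e-05), and the difference with PANC-1 vesicles was 0.25 (adjusted p = 0.394; 0.37, adjusted p = 0.0125 without the 4 libraries that lie apart). In HPDE the same gene was at 5.22, 5.51 and 5.15 FPKM with residual medium, 10.5, 8.55 and 10.1 with PANC-1 vesicles and 8.58, 8.87 and 9.65 with PPCL-68 vesicles. These rises were 0.76 and 0.67 (adjusted p = 1.02e-06 and 2.57e-06).

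SLC7A1, the widely expressed cationic transporter, stood in HPNE at 40.1, 42.5 and 33.9 FPKM with residual medium, 40.9, 65.2 and 75.8 with PANC-1 vesicles and 52, 76.5 and 75.8 with PPCL-68 vesicles. PANC-1 replicate 1 fell inside the residual range, and the difference of 0.59 was not called (adjusted p = 0.0944); without that library it was 0.85 (adjusted p = 0.0258), and without the 4 libraries that lie apart 0.76, adjusted p = 8.26e-06. With PPCL-68 vesicles the rise was 0.78 (adjusted p = 0.0251). That call was lost without residual replicate 1 or 3 or PPCL-68 replicate 2 or 3 (adjusted p 0.0582 to 0.0853), and without a filter on low values (adjusted p = 0.0749). HPDE libraries held 18.8, 19.7 and 20.5 FPKM with residual medium, 43.6, 39.5 and 42.5 with PANC-1 vesicles and 35.2, 35 and 39 with PPCL-68 vesicles, separate between residual medium and either vesicle group. The HPDE rises were 1.05 and 0.86 (adjusted p = 7.08e-10 and 3.37e-09).

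The SLC1 members carry small neutral amino acids by sodium-dependent exchange. SLC1A4 (ASCT1, for alanine, serine and cysteine) stood in HPNE at 2.04, 2.86 and 4.09 FPKM with residual medium, 5.13, 8.81 and 9.55 with PANC-1 vesicles and 9.09, 16.5 and 15.9 with PPCL-68 vesicles. All vesicle libraries lay above all residual libraries, and the rises were 1.14 (adjusted p = 0.0103) and 1.88 (adjusted p = 0.000361). In HPDE it went from 4.09, 4.84 and 3.72 FPKM with residual medium to 12, 11.7 and 11.6 with PANC-1 vesicles and 14.6, 14.8 and 14.7 with PPCL-68 vesicles (log2 1.30 and 1.60, adjusted p = 1.24e-09 and 9.11e-11). SLC1A5 (ASCT2, a main route of glutamine into many cells) was far more abundant, with 78.2, 85.2 and 128 FPKM with residual medium, 120.2, 158 and 162 with PANC-1 vesicles and 166, 158 and 159 with PPCL-68 vesicles in HPNE. Residual replicate 3 exceeded PANC-1 replicate 1. The rise was 0.61 with PANC-1 vesicles (adjusted p = 0.0236), a call lost without PANC-1 replicate 2 or 3 or residual replicate 1 or 2 (adjusted p 0.0786 to 0.102), without a filter (0.0690) and with only the 6 libraries compared (0.0996); without the 4 libraries that lie apart it was 0.96, adjusted p = 2.31e-07. With PPCL-68 vesicles it was 0.76 (adjusted p = 0.00511). HPDE libraries moved from 125, 118 and 116 FPKM to 207, 213 and 225 with PANC-1 and 207, 213 and 209.5 with PPCL-68 vesicles (log2 0.84 and 0.81, adjusted p = 9.70e-10 and 9.09e-10).

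SLC38A2 (SNAT2), the sodium-coupled transporter that adapts to amino acid supply, rose in every comparison with residual medium. HPNE libraries held 81.9, 83.9 and 110.0 FPKM with residual medium, 175, 185 and 186 with PANC-1 vesicles and 242, 302 and 273 with PPCL-68 vesicles. The 3 groups did not overlap, and the rises were 0.99 (adjusted p = 0.000936) and 1.56 (adjusted p = 3.87e-05). HPDE libraries held 114, 106 and 99.2 FPKM with residual medium, 417, 374 and 396 with PANC-1 vesicles and 380.0, 365 and 389 with PPCL-68 vesicles, rises of 1.88 and 1.82 (adjusted p = 1.19e-10 and 1.02e-10).

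SLC6A9 (GlyT1), the sodium- and chloride-dependent glycine transporter, stood in HPNE at 1.4, 2.05 and 6.46 FPKM with residual medium, 9.37, 14 and 16.6 with PANC-1 vesicles and 15.7, 18.8 and 20.5 with PPCL-68 vesicles. The third residual library was over 3 times the second, and still below all vesicle libraries. Its rises were 1.88 (SE 0.34, adjusted p = 0.00394) and 2.34 (SE 0.34, adjusted p = 0.000552). In HPDE it went from 4.09, 3.38 and 3.93 FPKM to 14.8, 14.9 and 15.9 with PANC-1 vesicles and 11.2, 13.1 and 14.3 with PPCL-68 vesicles. Those rises were 1.76 and 1.53 (adjusted p = 3.07e-10 and 6.72e-10). CCDC24, which overlaps it, did not follow: in HPDE it differed by -0.0038 with PANC-1 vesicles and fell by 0.74 with PPCL-68 vesicles. In HPNE it was too low to be tested.

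Residual medium itself was not neutral for these genes. In HPNE it raised SLC7A2 6.13-fold over fresh medium (log2 2.40, adjusted p = 3.57e-05) and SLC7A1 by 0.90 from 17.2, 17.6 and 27.6 FPKM (adjusted p = 0.0133). SLC6A9 fell from 11.1, 11.6 and 8.88 FPKM (log2 -1.60, adjusted p = 0.00462), SLC7A11 fell (log2 -1.52, adjusted p = 0.00392) and SLC38A2 fell from 139, 138 and 109.7 FPKM (log2 -0.49, adjusted p = 0.0153). These 2 rises and 3 falls compare with 18.7% and 25.2% of all genes, and so are near the background as counts. The SLC38A2 call ended with size factors (-0.36, adjusted p = 0.0715), which shift the median of all genes by 0.11, and without untreated replicate 1 or 2 or residual replicate 1 or 2 (adjusted p 0.0636 to 0.0665). The SLC7A1 call ended without untreated replicate 1 or 2 or residual replicate 2 (adjusted p 0.0503 to 0.0565), and each of these omissions left 3 genes called. Without the 4 libraries that lie apart all 10 were called, 4 higher and 6 lower, beside 4077 higher and 4166 lower of all 11503 genes, so these counts are near the background too. Without residual replicate 3 alone SLC3A2 (-0.60, adjusted p = 0.0166) and SLC7A6 (0.43, adjusted p = 0.0342) joined the calls.

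In HPDE residual medium raised none of the 10, beside 9.93% of all genes, and lowered 5, beside 10.1%. SLC7A11 fell by 0.71 on the log2 scale (adjusted p = 1.25e-05) and SLC38A2 by 0.56 (adjusted p = 0.000236), the latter from 183, 145 and 148 FPKM untreated. SLC7A2 (log2 -0.36), SLC7A5 (-0.35) and SLC7A6 (-0.25) fell less. The SLC7A6 call, at adjusted p = 0.0406, was lost when any of the 6 libraries was left out (adjusted p 0.0552 to 0.137) and without a filter (0.127). No difference of the 10 reached 1 in size in this line.

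Against fresh medium most of the genes also rose with vesicles, but with PANC-1 vesicles in HPNE they were partly other genes. There SLC7A1, SLC7A2 and SLC7A5 were called, though not against residual medium. SLC7A11 and SLC6A9, called against residual medium, were not called against fresh medium. With PANC-1 vesicles in HPNE 7 rose, beside 9.61% of all genes, and 5 by at least 1, beside 1.89%; with PPCL-68 vesicles 8 rose (18.7%), 7 of them by at least 1 (3.16%). None of the 10 fell, beside 11.5% (PANC-1) and 23.8% (PPCL-68) of all genes. The largest difference was that of SLC7A2 in HPNE with PPCL-68 vesicles, 48.4-fold in FPKM (log2 5.30, SE 0.21, adjusted p = 1.19e-07), followed by 7.4-fold with PANC-1 vesicles. SLC7A5 rose 4.28-fold and 4.62-fold from 44.7, 45 and 64.5 FPKM (adjusted p = 0.00693 and 0.0015). SLC6A9, whose rises over residual medium were among the larger ones, differed from fresh medium by 0.29 (adjusted p = 0.575) and 0.74 (adjusted p = 0.102) in HPNE. The PPCL-68 difference passed with only the 6 libraries compared (adjusted p = 0.00444), and both passed without the 4 libraries that lie apart (0.40 and 0.74). SLC7A11 there differed by 0.81 (adjusted p = 0.0897) with PANC-1 vesicles, and by 1.16 (adjusted p = 0.0126) with PPCL-68 vesicles. The former passed without PANC-1 replicate 1 (1.14, adjusted p = 0.0169), and the latter was lost without PPCL-68 replicate 3 (adjusted p = 0.0508). The PANC-1 count fell from 7 to 4 without untreated replicate 2 or PANC-1 replicate 2, to 3 without PANC-1 replicate 3, and to 4 without a filter on low values; the calls lost were among SLC3A2, SLC1A4, SLC1A5 and SLC38A2. For single genes the SLC1A5 call was lost without any untreated library or PANC-1 replicate 2 or 3 (adjusted p 0.0616 to 0.133), that of SLC1A4 without untreated replicate 1 or 2 or PANC-1 replicate 2 or 3 (0.0548 to 0.0806), and that of SLC38A2 without untreated replicate 2 or 3 or PANC-1 replicate 2 or 3 (0.0533 to 0.0859).

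In HPDE 9 genes rose over fresh medium with either source, beside 26.3% (PANC-1) and 30.1% (PPCL-68) of all genes; 4 rose by at least 1 with each, beside 2.05% and 2.31%. Those 4 were SLC7A11 (1.48 and 1.67), SLC1A4 (1.23 and 1.53), SLC38A2 (1.32 and 1.26) and SLC6A9 (1.71 and 1.48). Here SLC6A9 rose from 3.92, 4.18 and 3.79 FPKM. SLC7A6 fell by 0.24 with PANC-1 vesicles from 7.26, 6.86 and 6.59 FPKM (adjusted p = 0.018), a call that was lost without untreated replicate 1 or PANC-1 replicate 2 (adjusted p 0.0676 and 0.0931) and without a filter (0.0589). Falls were called for 34.4% of all genes with PANC-1 vesicles; with PPCL-68 vesicles none of the 10 fell, beside 36.1%.

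**Figure D3:**
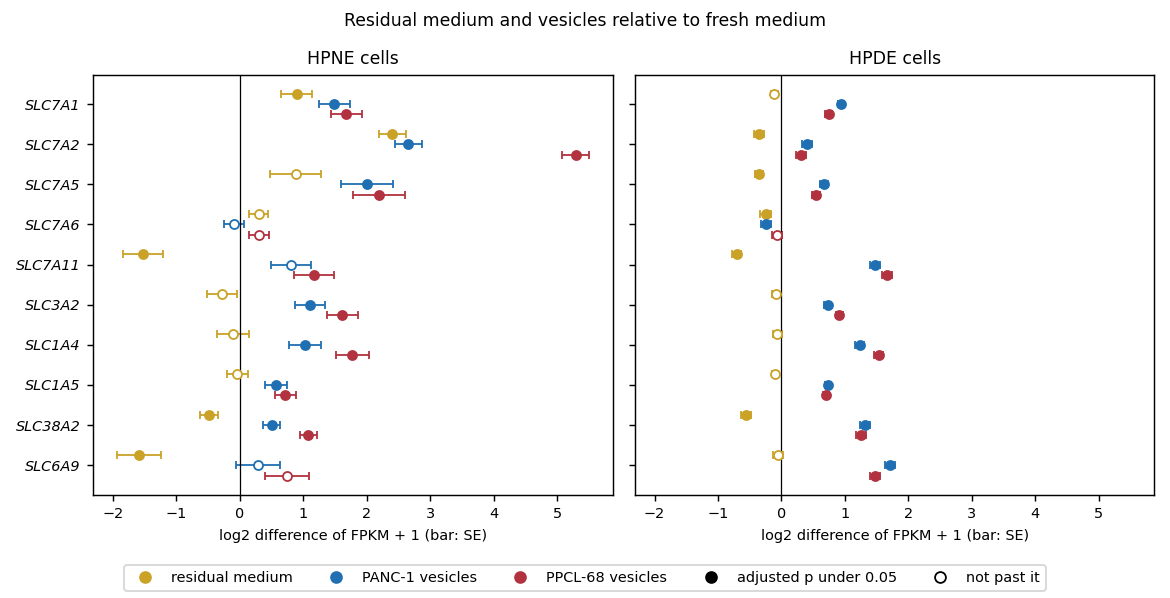
Log2 difference of FPKM + 1 from fresh medium for each transporter with residual medium and with either kind of vesicle, HPNE left and HPDE right, bars showing the SE and filled points an adjusted p under 0.05. In HPNE residual medium lies below 0 for SLC7A11 and SLC6A9 and above 0 for SLC7A1 and SLC7A2; in HPDE no residual value exceeds 0.

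Vesicles of the 2 sources were then compared directly. In HPNE, SLC7A2 was lower with PANC-1 than with PPCL-68 vesicles by 2.64 on the log2 scale (adjusted p = 0.000667) and SLC38A2 by 0.57 (adjusted p = 0.0346), 2 of 10 beside 2.25% of all genes; none was higher, beside 3.22%. Same-numbered libraries of these 2 groups deviated together. When replicate number entered as a block, SLC38A2 was no longer called (adjusted p = 0.0574) while SLC1A4 was (log2 -0.74, adjusted p = 0.0372). The SLC38A2 call was also lost in limma voom (0.0689), without a filter (0.0871), and without any 1 of PANC-1 replicates 1, 2 and 3 and PPCL-68 replicates 2 and 3 (adjusted p 0.0702 to 0.151). SLC7A2 stayed called in these settings. Without the 4 libraries that lie apart, 6 genes were lower with PANC-1 vesicles, beside 1588 lower and 2597 higher of all 11503 genes. For SLC7A5 the difference was -0.19 with an SE of 0.41, and it did not pass the test (adjusted p = 0.82).

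In HPDE 2 genes were higher and 3 lower with PANC-1 than with PPCL-68 vesicles, beside 25.2% and 24.9% of all genes, and no difference reached 1. SLC7A1 (0.20, adjusted p = 0.00643) and SLC6A9 (0.23, adjusted p = 0.0282) were higher. SLC1A4 (-0.30, adjusted p = 0.00226), SLC3A2 (-0.18, adjusted p = 0.0136) and SLC7A11 (-0.19, adjusted p = 0.043) were lower. The SLC7A11 call was lost without PANC-1 replicate 2 (-0.11, adjusted p = 0.220) or 3 or PPCL-68 replicate 1 or 2, with a pseudocount of 0.1 (0.0507) and with only the 6 libraries compared (0.0570). The SLC6A9 call was lost without PANC-1 replicate 3 (adjusted p = 0.0982) or PPCL-68 replicate 1 (adjusted p = 0.143), and the SLC3A2 call without PANC-1 replicate 1 (0.0641) or PPCL-68 replicate 2 (0.0635). The count of 5 became 3 without PANC-1 replicate 3 or PPCL-68 replicate 2, and 2 without a filter on low values. SLC7A6 joined the calls as lower without PANC-1 replicate 1 (-0.24, adjusted p = 0.0286) or PPCL-68 replicate 1 (-0.22, adjusted p = 0.0496) and with limma voom (-0.20, adjusted p = 0.0464).

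The lines were compared in a single fit of all 24 libraries, with each effect in HPDE taken minus that in HPNE. For PANC-1 vesicles against residual medium only SLC38A2 differed, rising more in HPDE (difference 0.89, SE 0.16, adjusted p = 0.000703); 1 of 10 higher and 0 lower compare with 8.65% and 12.5% of all genes. For PPCL-68 vesicles SLC7A2 (-2.22, SE 0.24, adjusted p = 1.31e-06) and SLC3A2 (-0.90, SE 0.26, adjusted p = 0.0167) rose less in HPDE, 2 of 10 beside 13.6% of all genes, and none rose more, beside 12.1%. The SLC3A2 difference lost its call in limma voom (adjusted p = 0.0519) and without residual replicate 1 of HPNE (adjusted p = 0.0531). SLC7A11 was not called as different between the lines, at -0.15, SE 0.35, adjusted p = 0.793 for PANC-1 vesicles and -0.31, SE 0.35, adjusted p = 0.543 for PPCL-68 vesicles; without the 4 HPNE libraries that lie apart it was called at -0.80 (adjusted p = 0.000151) and -0.83 (adjusted p = 9.88e-05). In that setting 8 and 6 of the 10 differed between the lines, beside 5812 and 5686 of all 12377 genes. Single omissions moved the counts too: the PANC-1 count was 2 without HPNE PANC-1 replicate 1 and 4 without HPNE residual replicate 3, and the PPCL-68 count was 1 without HPNE residual replicate 1 and 4 without HPNE residual replicate 3.

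The response to residual medium differed between the lines for 5 of the 10 genes, 1 upward (background 21%) and 4 downward (background 17.1%). SLC6A9 fell in HPNE and hardly moved in HPDE (difference 1.54, SE 0.38, adjusted p = 0.00406). SLC7A2 (-2.76, SE 0.24, adjusted p = 9.20e-08) and SLC7A1 (-1.01, SE 0.26, adjusted p = 0.00605) rose in HPNE and did not rise in HPDE. SLC7A5 (-1.23, SE 0.44, adjusted p = 0.0329) and SLC7A6 (-0.54, SE 0.18, adjusted p = 0.0228) were the other 2. The SLC7A5 difference lost its call in 8 of the 12 single omissions: HPNE untreated replicate 1 or 2, HPNE residual replicate 3, any HPDE untreated library, and HPDE residual replicate 2 or 3 (adjusted p 0.0531 to 0.0741). The SLC7A6 difference lost it without HPNE untreated replicate 1 or 2, HPNE residual replicate 1 or 2, or replicate 1 of either HPDE group (adjusted p 0.0502 to 0.0666). Without a filter on low values both were lost (adjusted p = 0.0847 and 0.0540), leaving 3 genes. That count was also 3 without HPNE untreated replicate 1 or 2 or HPDE untreated replicate 1, and 8 without the 4 HPNE libraries that lie apart, where 7738 of all 12377 genes were called.

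FPKM is scaled to gene length, so levels of the heavy chain and its light chains can be set side by side. In HPNE SLC7A5 stood at 0.553 ± 0.153 times the SLC3A2 level in fresh medium (SD, n = 3), 1.24 ± 0.283 with residual medium, 1.03 ± 0.213 with PANC-1 vesicles and 0.817 ± 0.0994 with PPCL-68 vesicles. The untreated libraries ranged from 0.459 to 0.730, and those with PPCL-68 vesicles from 0.711 to 0.909. In HPDE the ratio was 2.06 ± 0.0757, 1.72 ± 0.0784, 1.97 ± 0.0791 and 1.6 ± 0.099 in the same order, and every HPDE library lay above all HPNE libraries of the same treatment. The ratio of SLC7A11 to SLC3A2 lay between 0.0203 and 0.145 in all libraries. In HPNE it was 0.141 ± 0.00489 in fresh medium, 0.0509 ± 0.00572 with residual medium, 0.119 ± 0.0202 with PANC-1 and 0.108 ± 0.0189 with PPCL-68 vesicles. HPDE gave 0.0391 ± 0.000941, 0.024 ± 0.0032, 0.0701 ± 0.012 and 0.0702 ± 0.00208. In both lines the residual libraries had the lowest SLC7A11 ratios, with no overlap with any other group of the line. The ratios are given as a description, with no test.

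**Figure D4:**
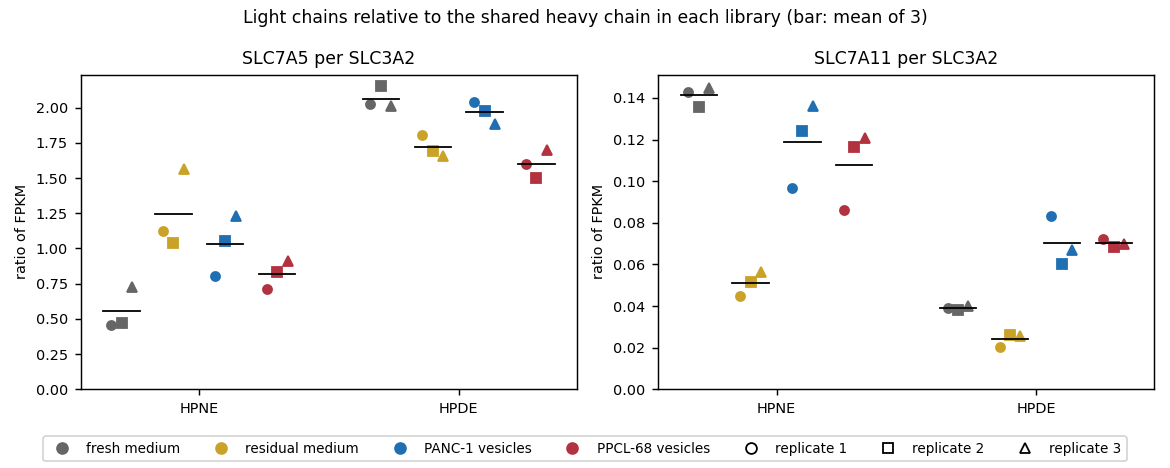
Ratio of SLC7A5 FPKM and of SLC7A11 FPKM to SLC3A2 FPKM in each library, by line and treatment, with the mean of 3 as a bar. Residual medium has the lowest SLC7A11 ratio in both lines, and SLC7A5 exceeds SLC3A2 in every HPDE library.

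Of 42 other amino acid transporters listed by family, 17 were expressed enough to be tested in HPNE and 18 in HPDE. Against residual medium 10 rose and 1 fell in HPNE with each vesicle source, where the shares of all genes were 13.9% higher and 10.3% lower with PANC-1 vesicles and 20.3% higher and 19.7% lower with PPCL-68 vesicles. In HPDE 6 rose and 4 fell with PANC-1 vesicles (all genes 28.2% higher and 35.1% lower), a count near the background, and 10 rose and 5 fell with PPCL-68 vesicles (all genes 31.3% higher and 36.4% lower). Their median log2 difference was 0.37 (PANC-1) and 0.40 (PPCL-68) in HPNE, then 0.02 and 0.29 in HPDE, against medians of all genes between -0.04 and 0.02. The comparisons with fresh medium share the vesicle libraries and gave other counts in HPNE: 2 rose and 2 fell with PANC-1 vesicles (median -0.03; all genes 9.61% higher and 11.5% lower), and 4 rose and 4 fell with PPCL-68 vesicles (median 0.18; all genes 18.7% higher and 23.8% lower). Residual medium against fresh medium lowered 8 of the 17 and raised 2 (all genes 18.7% higher and 25.2% lower). In HPDE against fresh medium 7 rose and 7 fell with PANC-1 vesicles (all genes 26.3% higher and 34.4% lower), and 10 rose and 7 fell with PPCL-68 vesicles (all genes 30.1% higher and 36.1% lower). SLC38A1, a glutamine carrier related to SLC38A2, rose in HPNE with PPCL-68 vesicles from 17.9 ± 5.39 to 61.9 ± 11.3 FPKM (1.75, SE 0.21, adjusted p = 0.00019) and in HPDE from 49.8 ± 2.12 to 106 ± 5.05 FPKM (1.08, SE 0.06, adjusted p = 6.76e-10). SLC6A15, a carrier of branched-chain amino acids, rose in HPNE with PANC-1 vesicles from 6.4 ± 0.492 to 27.8 ± 3.55 FPKM (1.96, SE 0.12, adjusted p = 2.73e-05). Its untreated HPNE libraries were at 39.5, 40.4 and 36.8 FPKM, above all 3 PANC-1 libraries at 28.5, 31 and 24 FPKM and the residual libraries at 6.34, 6.91 and 5.93 FPKM. Among glutamate transporters, with PPCL-68 vesicles SLC1A1 fell in HPNE from 10.8 ± 0.501 to 3.35 ± 0.50 FPKM, and SLC1A3 fell in HPDE from 7.2 ± 0.848 to 3.08 ± 0.479 FPKM.

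The next list held 17 genes of the amino acid response: stress kinases, factors downstream of them, and enzymes such as ASNS and CHAC1. In HPNE 12 rose and 1 fell with PANC-1 vesicles against residual medium, and 13 rose and 2 fell with PPCL-68 vesicles. Among all genes 13.9% and 20.3% were higher and 10.3% and 19.7% lower. In HPDE, where 16 were tested, 13 rose with each source, beside 28.2% and 31.3% of all genes. There 1 (PANC-1) and 2 (PPCL-68) fell, beside 35.1% and 36.4%. The median of the list reached 1.20 (PANC-1) and 1.44 (PPCL-68) in HPNE, then 1.06 and 1.17 in HPDE. Against fresh medium, in comparisons that share the vesicle libraries, 8 rose and 1 fell in HPNE with PANC-1 vesicles (median 0.57). With PPCL-68 vesicles 10 rose and 2 fell (median 0.76). Among all genes 9.61% and 18.7% were higher and 11.5% and 23.8% lower. In HPDE 13 rose with each source (medians 1.32 and 1.37), beside 26.3% and 30.1% of all genes higher. There 2 and 3 fell, beside 34.4% and 36.1% lower. ATF4 itself rose in HPDE from 118 ± 2.76 to 164 ± 2.41 FPKM with PANC-1 vesicles (0.48, SE 0.04, adjusted p = 1.92e-07). In HPNE it rose over residual medium by 0.63 (adjusted p = 0.0444) with PANC-1 and 0.79 (adjusted p = 0.0109) with PPCL-68 vesicles. Against fresh medium the HPNE differences of ATF4 were 0.05 (adjusted p = 0.874) and 0.21 (adjusted p = 0.426), neither called. DDIT3 and TRIB3, the other set names, were called there. DDIT3 rose by 1.22 (adjusted p = 0.0271) with PANC-1 and 1.19 (adjusted p = 0.0160) with PPCL-68 vesicles. TRIB3 rose by 1.43 (adjusted p = 0.0439) and 1.47 (adjusted p = 0.0217). Over residual medium in HPNE, TRIB3 rose by 2.70 and 2.74 and DDIT3 by 2.15 and 2.12. Residual medium itself lowered ATF4 in HPNE (-0.58, adjusted p = 0.0392). SESN2, a leucine sensor induced by ATF4, rose with PANC-1 vesicles in HPDE from 13.1 ± 0.453 to 57.7 ± 1.49 FPKM (2.06, SE 0.05, adjusted p = 1.78e-12) and in HPNE from 10.7 ± 5.01 to 48.2 ± 6.76 FPKM (2.15, SE 0.23, adjusted p = 0.00031). In HPNE the third residual library stood out here, with ATF4 at 231 FPKM against 125 and 138 FPKM in replicates 1 and 2. It was also the highest residual library for SLC7A5, SLC7A11, SLC3A2, SLC1A4, SLC1A5, SLC38A2 and SLC6A9. For SLC7A1 and SLC7A6 it was the lowest, and for SLC7A2 it lay in between.

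Of 14 cystine and glutathione genes, 13 were tested in each line. Against residual medium 5 rose and none fell in HPNE with PANC-1 vesicles, and 9 rose and 2 fell with PPCL-68 vesicles, beside 13.9% higher and 10.3% lower and 20.3% higher and 19.7% lower among all genes. In HPDE 5 rose and 4 fell with PANC-1 vesicles, near the background of 28.2% higher and 35.1% lower, and 8 rose and 4 fell with PPCL-68 vesicles (all genes 31.3% higher and 36.4% lower). Against fresh medium the HPNE counts were 2 higher and 2 lower with PANC-1 vesicles and 5 higher and 1 lower with PPCL-68 vesicles, with medians of -0.04 and -0.06, beside 9.61% higher and 11.5% lower and 18.7% higher and 23.8% lower among all genes. In HPDE they were 6 and 4, and 8 and 4, beside 26.3% higher and 34.4% lower and 30.1% higher and 36.1% lower. CBS, which makes cystathionine on the way from homocysteine to cysteine, rose in HPDE with PPCL-68 vesicles from 13.6 ± 0.10 to 42.9 ± 1.5 FPKM (1.59, SE 0.05, adjusted p = 4.32e-12) and in HPNE from 31.7 ± 10.9 to 83.1 ± 8.82 FPKM (1.41, SE 0.19, adjusted p = 0.000365). CTH, the next enzyme of that route, rose in HPDE with PPCL-68 vesicles (1.30, SE 0.11, adjusted p = 1.13e-07). GCLM, a subunit of the enzyme that starts glutathione synthesis, fell in HPDE with PANC-1 vesicles from 12.1 ± 0.372 to 7.9 ± 0.297 FPKM (-0.56, SE 0.06, adjusted p = 3.58e-06). NFE2L2 rose in HPNE with PANC-1 vesicles (0.85, SE 0.11, adjusted p = 0.000589), and HMOX1, a haem-degrading enzyme, rose with PPCL-68 vesicles in HPNE (1.93, SE 0.41, adjusted p = 0.00426) and in HPDE (1.21, SE 0.10, adjusted p = 5.90e-08). Its HPNE libraries were at 159.6, 159.6 and 168 FPKM untreated, 42.5, 54.9 and 44.4 with residual medium and 84.3, 206 and 342 with PPCL-68 vesicles. The residual libraries were the lowest, and the PPCL-68 libraries lay on both sides of the untreated ones.

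Across the 12 libraries of a line the members mostly varied together, which is given as a description since the libraries share treatments. In HPDE, Pearson's r of log2 values was 0.96 between SLC7A11 and SLC3A2 and 0.93 between SLC7A5 and SLC3A2. In HPNE the same pairs gave 0.91 and 0.87. SLC7A6 ran with none of the others in HPDE, with r from -0.11 to 0.27, and in HPNE its r ranged from -0.31 to 0.47. The genes most like SLC3A2 over 12 libraries, among those with a mean of at least 10 FPKM, were YARS (r = 0.993), CBS and MARS in HPNE and C6orf48 (r = 0.989), ATF4 and CBS in HPDE. Those most like SLC7A11 were ULBP1 (r = 0.976), SLC6A9 and APOL6 in HPNE and XPOT (r = 0.991), LATS1 and DYRK1A in HPDE.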

How the data were processed

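RNA-seq was measured in 24 libraries, 3 in each of 8 groups taken from the sample titles. The authors deposited an FPKM value per gene for each library, per the file headers; the submitters' processing notes name CASAVA, STAR, HTSeq, DESeq2 and hg19, without versions or roles. FPKM times gene length was a whole multiple of 1 step for 100% of values in every library (within 0.01 reads), which returned the reads behind each value.

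Groups were compared with limma 3.58.1 (R 4.3.3; lmFit, then eBayes with trend = TRUE) after taking log2(FPKM + 1), which understates changes of weakly expressed genes. Each line was fitted on its 12 libraries, leaving 8 residual degrees of freedom, and genes averaging under 1 FPKM there were dropped; comparisons between lines used all 24. Tests were two-sided, with Benjamini-Hochberg adjustment over all genes tested and a threshold of 0.05. The script was tested on simulated data. Alternatives were a pseudocount of 0.1, no filter, size factors, limma voom on the recovered reads, the replicate number as a block, only the 6 libraries compared, and leaving out libraries.

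Replicate numbers are shared by all groups. Same-numbered libraries deviated together (every r above 0.1) only for PANC-1 against PPCL-68 vesicles in HPNE, with r of 0.57, 0.29 and 0.50; the pairing comes from the data, not the labels. All 10 members are described; other genes were named from 5 lists written from general knowledge, by the largest called differences and a few set names. The members and lists were chosen with earlier results of these data known. A withheld item is not reported here.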

Additional observations from a re-analysis of the deposited data

Results flagged for a closer look

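The following differences between the lines passed a direct test in the fit of all 24 libraries. Each is the effect in HPDE minus that in HPNE, on the log2(FPKM + 1) scale with limma's adjusted p. For PANC-1 vesicles against residual medium it was 0.89, SE 0.16, adjusted p = 0.000703 for SLC38A2, which rose in 3 of 3 libraries against every residual library in each line. For PPCL-68 vesicles it was -2.22, SE 0.24, adjusted p = 1.31e-06 for SLC7A2 and -0.90, SE 0.26, adjusted p = 0.0167 for SLC3A2.

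For residual against fresh medium it was -1.01, SE 0.26, adjusted p = 0.00605 for SLC7A1, -2.76, SE 0.24, adjusted p = 9.20e-08 for SLC7A2, -1.23, SE 0.44, adjusted p = 0.0329 for SLC7A5, -0.54, SE 0.18, adjusted p = 0.0228 for SLC7A6 and 1.54, SE 0.38, adjusted p = 0.00406 for SLC6A9. Residual replicate 3 of HPNE, which lies apart from its group, enters all 8 of these values; its part was tested by leaving it out, which changed the call of SLC7A5 (adjusted p = 0.0685) among them.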

How the results depend on the processing

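Over all settings, 1985 of 2160 recomputed values of single genes kept their side of the threshold. Another 105 lost a call, 66 gained one and 4 turned in sign with a call in the main fit or the alternative. A turn in sign with no call in either was counted among the 1985. The 4 that turned with a call were the residual medium effect of SLC1A5 between the lines (0.16, adjusted p = 0.0415, without the 4 HPNE libraries that lie apart) and, between untreated lines, SLC38A2 (-0.068 with size factors, -0.12 with limma voom) and SLC1A5 (-0.023 with limma voom). The cause was not tested.

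Counts of transporters called moved as follows, and counts over all genes moved in some of these settings too, as given further below. Without the 4 HPNE libraries that lie apart they were 10 in place of 6 (HPNE, PANC-1 vesicles against residual medium), 10 in place of 5 (HPNE, residual against fresh medium), 6 in place of 2 (HPNE, PANC-1 against PPCL-68 vesicles), and 8, 6 and 8 in place of 1, 2 and 5 for the line differences in PANC-1, PPCL-68 and residual medium effects. Without a filter they were 4 in place of 7 (HPNE, PANC-1 vesicles against fresh medium), 1 in place of 2 and 2 in place of 5 (PANC-1 against PPCL-68 vesicles in HPNE and HPDE) and 3 in place of 5 (line difference, residual medium); many more genes were then tested. With limma voom they were 1 in place of 2 (HPNE, PANC-1 against PPCL-68 vesicles) and 3 and 1 in place of 1 and 2 (line differences, PANC-1 and PPCL-68 effects).

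Leaving out 1 library at a time gave 5 to 8 called in HPNE for PANC-1 vesicles against residual medium and 7 to 9 for PPCL-68 vesicles; 3 to 8 and 7 to 9 against fresh medium; 3 to 7 for residual against fresh medium; and 1 to 3 between vesicles. In HPDE these ranges were 9 to 9, 9 to 10, 9 to 10, 9 to 9, 4 to 4 and 3 to 5. The line differences gave 1 to 4, 1 to 4 and 3 to 6, and the untreated lines 5 to 7. Counts over all genes moved as well. For PANC-1 vesicles against residual medium in HPNE, 2784 became 1344 without residual replicate 1 and 4443 without residual replicate 3.

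With the replicate block, apart from the HPNE comparison of vesicles, calls were gained in HPNE for SLC7A5 with PANC-1 vesicles against residual medium (adjusted p = 0.0146), SLC7A11 with PANC-1 vesicles against fresh medium (0.0350) and SLC7A5 with residual against fresh medium (0.0205). They were lost in HPDE for SLC7A6 with residual against fresh medium (0.0595) and SLC7A11 between vesicles (0.0592), and SLC7A11 gained one between the lines (0.0473, residual medium). The block changed no other call of the 10.

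Over all genes, called counts changed by more than 1.5 times in HPNE for PANC-1 against PPCL-68 vesicles (629; 335 without a filter, 323 with only the 6 libraries, 4185 without the libraries apart, 135 to 394 without single libraries) and for PANC-1 vesicles against residual medium (2784; 1436, 6779 and 1344 to 4443 in the last 3 settings). Without the libraries apart, 4595 became 7535, 2430 became 7209, 4891 became 7998 and 5052 became 8243 in the other 4 HPNE comparisons, and the line differences 2622, 3183 and 4714 became 5812, 5686 and 7738. Without single libraries, 2430 (PANC-1 vesicles against fresh medium) became 1198 and 1087 (untreated 1, 2) and 1215 and 1046 (PANC-1 2, 3), and 5052 (residual against fresh medium) became 3151 and 3044 (untreated 1, 2) and 3168 and 3141 (residual 1, 2); 2622 became 4314 without HPNE residual 3. In HPDE, 2443 for residual against fresh medium became 1527 without a filter and 1423, 1617 and 1577 without untreated 1, untreated 3 or residual 1. With size factors the share of calls that were higher went from 57.4% to 42.0% (HPNE, PANC-1 vesicles against residual medium), 42.6% to 61.5% (HPNE, residual against fresh medium), 45.5% to 58.3% and 44.0% to 55.2% (PANC-1 and PPCL-68 vesicles against fresh medium), and 66.9% to 53.2% (untreated lines).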

Other observations

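Among genes that use arginine and glutamine, counts against residual medium in HPNE were near the background: 2 of 12 tested rose and 1 fell with PANC-1 vesicles (all genes 13.9% higher and 10.3% lower), and 3 rose and 3 fell with PPCL-68 vesicles (all genes 20.3% higher and 19.7% lower). In HPDE 7 of 14 rose and 4 fell with PANC-1 vesicles (all genes 28.2% higher and 35.1% lower), and 6 rose and 4 fell with PPCL-68 vesicles (all genes 31.3% higher and 36.4% lower). ODC1, which makes putrescine from ornithine, rose in HPDE with PPCL-68 vesicles from 113 ± 11.3 to 422 ± 26.6 FPKM (1.89, SE 0.07, adjusted p = 3.00e-11, limma), and ARG2, an arginase of mitochondria, rose there from 10.6 ± 0.90 to 24.2 ± 1.19 FPKM. ALDH18A1, an enzyme of proline synthesis, fell in HPNE with PPCL-68 vesicles from 38.6 ± 1.86 to 18 ± 0.70 FPKM (-1.06, SE 0.09, adjusted p = 4.24e-05).

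Of the serine and glycine genes, 5 of 6 tested rose against residual medium in HPNE with PANC-1 vesicles (1 fell) and 4 with PPCL-68 vesicles (1 fell). Among all genes 13.9% and 20.3% were higher and 10.3% and 19.7% lower. In HPDE 5 of 7 rose with each source (2 fell), beside 28.2% and 31.3% higher and 35.1% and 36.4% lower. Against fresh medium 2 of 6 rose in HPNE with PANC-1 vesicles and none fell, and 3 rose and 1 fell with PPCL-68 vesicles. The shares of all genes were 9.61% and 18.7% higher and 11.5% and 23.8% lower. In HPDE 5 rose and 2 fell with each source, beside 26.3% and 30.1% higher and 34.4% and 36.1% lower. PSAT1, an aminotransferase of serine synthesis, rose in HPDE with PANC-1 vesicles from 56.9 ± 4.89 to 128 ± 2.92 FPKM (1.15, SE 0.05, adjusted p = 3.85e-10), and PHGDH, the first enzyme of that route, with PPCL-68 vesicles from 26.4 ± 0.474 to 64.3 ± 1.8 FPKM. SHMT1, a cytosolic enzyme that interconverts serine and glycine, fell in HPNE with PPCL-68 vesicles from 4.03 ± 1.57 to 0.902 ± 0.324 FPKM.

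Summed over the 10 transporters, FPKM in HPNE was 427 ± 6.55 untreated (SD, n = 3), 461 ± 147 with residual medium, 903 ± 211 with PANC-1 vesicles and 1348 ± 188 with PPCL-68 vesicles. In HPDE the sums were 1124 ± 8.92, 926 ± 66.1, 1987 ± 36.2 and 1956 ± 15 in the same order.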
